A study of Mus musculus with 2 samples.

Results

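Penk, the gene of the opioid peptide precursor preproenkephalin, was followed through 2 libraries of single cells from mouse knee joints. It is 1 gene of the 32245 listed in both tables, and it was chosen from the measured ratio of its level between the 2 genotypes in cells with Sox9 and Col2a1, so that ratio is given as a description without a test. Control cells were from Stat3fl/fl and mutant cells from Acan-Cre+/Cre;Stat3fl/fl mice, in both cases females 1 month old, and the floxed Stat3 alleles were thus common to both. The study's methods describe a tamoxifen-regulated Cre recombinase under the promoter of aggrecan (Acan), carried on 1 allele and induced in the first days after birth, which deletes Stat3 in cells that use that promoter and not in every cell of the joint. Knees of several mice per genotype were pooled, crushed and digested overnight in the cold and then for hours at body temperature, and live cells without CD31, Ter119 and CD45 at the surface were sorted. Each genotype was therefore 1 library, and no p-value was computed; intervals below are 95% intervals that cover counting error only and not the spread between mice.

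Preproenkephalin is cut in the secretory pathway by proprotein convertases at pairs of basic residues, and carboxypeptidases such as Cpe then trim the ends to release Met-enkephalin and Leu-enkephalin. These pentapeptides act at the delta and mu opioid receptors (Oprd1, Oprm1), Met-enkephalin is also a ligand of the opioid growth factor receptor Ogfr, and peptidases such as neprilysin (Mme) end their action. Outside the nervous system, Penk is known from mesenchymal tissues of the developing skeleton. Stat3 is the transcription factor that gp130 cytokine receptors activate, and Sox9 and Col2a1 (type II collagen) define chondrocytes, the cells of cartilage.

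Penk (ENSMUSG00000045573) lies on the minus strand of GRCm38 (the assembly also called mm10) at chr4:4133531-4138819, and its annotated transcript has 1449 bases in 2 exons. The coding part of 804 bases holds 7 stretches that spell an enkephalin, 6 for Met-enkephalin and 1 for Leu-enkephalin, all in exon 2. Of these, 5 are flanked on both sides by a pair of codons for basic residues, the sites of convertase cleavage, and 2 lack the pair downstream. The following 4 are shown because they cover these forms, 5′ to 3′ on the coding strand, with the 15 bases of the pentapeptide in capitals and 6 flanking bases on each side in lower case.
Met-enkephalin unit 1, basic pairs on both sides, chr4:4134328-4134354: aagaagTACGGAGGCTTCATGaaacgg
Met-enkephalin unit 4, no basic pair downstream, chr4:4134067-4134093: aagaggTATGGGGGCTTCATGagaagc
Leu-enkephalin unit 6, basic pairs on both sides, chr4:4133935-4133961: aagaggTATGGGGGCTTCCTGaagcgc
Met-enkephalin unit 7, no basic pair downstream, chr4:4133842-4133868: aaaagaTACGGGGGCTTTATGcggttc
The units end between 317 and 803 bases before the end of the transcript. The kit primes from the poly(A) tail, so the counts report the transcript as a whole and carry no information on which peptide is released. An uncharacterised gene on the other strand, A830012C17Rik, overlaps Penk by 499 bases at the 5′ end, and it stood at 3.21 and 1.30 CPM (counts scaled to a sum of 1000000) in the control and mutant cells described next.

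The control library held 4903 cells at a median depth of 4344 UMIs (unique molecular identifiers, 1 per captured molecule), and the mutant library 1340 cells at 3743. Of these, 501 control and 332 mutant cells carried the authors' mark for selected chondrocytes. Every marked cell had both Sox9 and Col2a1 and lacked globin transcripts, while the chondrocytes with a globin value, 512 control and 3 mutant, carried no mark. Median depths of the marked cells were 5876 and 8595 UMIs, and their sums, rounded, 3068820 and 3062810. Of the mutant marked cells 20.2% were over 5% mitochondrial reads, against 3.99% of the control ones. The libraries shared 2 cell barcodes. Stat3 stood at 142 CPM in control and 103 CPM in mutant marked cells (log2 ratio -0.45), which does not check the deletion, because 3′ counts also read a transcript that has lost internal exons. Acan, whose locus carries the Cre allele, stood at 4837 and 1697 CPM (-1.51).

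Most Penk lay in cells with chondrocyte, fibroblast or tendon markers. In the mutant library it was also present in shallow cells that passed no marker gate, while few or no cells of the other marker-gated classes held it. In the control library 244 of 4903 cells had Penk, with 463 UMIs in all, and in the mutant library 232 of 1340 cells, with 1884 UMIs. Cells were placed in classes by fixed markers, Penk not among them, each cell in the class with the highest mean marker level among those with at least 3 markers above 0. The 10 genes with the highest fold in each class with at least 20 cells held between 2 and 6 of its own markers and at most 1 of any other class, and Penk was in none of these lists. These names rest on markers alone, and each class is therefore called by what it resembles.

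Growth cartilage chondrocyte-like cells, with Col9a1, Matn3 and Ucma, made up most of the Penk in both libraries. They held 72.2% of the control and 73.8% of the mutant Penk UMIs. Penk was detected in 12.8% of the 1174 control cells of this class (10.9% to 14.8%), against 34.8% of the 353 mutant cells (29.9% to 40.1%). Summed over the class, its level was 59.4 CPM (53.2 to 66.1) in control and 496 CPM (470 to 523) in mutant cells.

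Fibroblast-like cells came next in the control library. Of the markers of this class, Dcn was above 0 in 384 of 385 control and all 207 mutant cells. Clec3b was above 0 in 283 and 154, Pi16 in 102 and 40, and Dpp4 in 91 and 39. Here 50 of 385 control cells had Penk, 13% (9.80% to 16.8%), as did 60 of 207 mutant cells, 29.0% (22.9% to 35.7%). Its level was 49.8 CPM (38.9 to 63.2) in control and 131 CPM (113 to 152) in mutant cells. The control fibroblast-like level could not be told apart from that of growth cartilage chondrocyte-like cells, whose interval overlaps it. In the mutant library, with all cells counted, the fibroblast-like level was lower than that of the 3 other classes with Penk. Among fibroblast-like cells, those with Dpp4, a marker of adventitial fibroblasts, had less Penk than those without it, at 27.1 against 57.8 CPM among control and 36.9 against 154 CPM among mutant cells. Pi16, which marks the same fibroblasts, gave no such order, with 64.3 against 44.9 CPM among control and 56.3 against 151 CPM among mutant cells.

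Articular chondrocyte-like cells, with Cytl1, Clu and Erg, and tenocyte-like cells, with Tnmd, Kera and Scx, had little Penk in the control library and much in the mutant one. Of 189 control articular chondrocyte-like cells 4.23% had Penk (1.84% to 8.17%), against 16.7% of 54 mutant cells (7.92% to 29.3%). The articular level was 16.6 CPM (7.92 to 30.4) in control and 453 CPM (382 to 537) in mutant cells. Of 259 control tenocyte-like cells 3.09% had Penk (1.34% to 6%), against 31.6% of 38 mutant cells (17.5% to 48.7%), and their level was 10.1 CPM (4.99 to 17.9) and 309 CPM (239 to 397). In the control library the order of levels was growth cartilage and fibroblast, which overlapped, then articular and tenocyte, which also overlapped. In the mutant library, with all cells counted, it was growth cartilage and articular, which overlapped, then tenocyte, then fibroblast. The tenocyte interval overlapped the articular one but not that of growth cartilage. The articular place rested on few cells, which these intervals do not cover. Without the 3 highest cells of each class, the mutant levels were 374 CPM in growth cartilage, 105 in tenocyte, 90.6 in fibroblast and 45.5 in articular chondrocyte-like cells.

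The other classes held less. In the control library Penk was above 0 in 0.744% of 1747 erythroid-like cells (median 5626 UMIs), a class that should lack the transcript and that is deeper than the control growth cartilage chondrocyte-like cells (median 4608 UMIs). Early haematopoietic progenitor-like cells, which should lack it as well and were the deepest (median 10007 UMIs), had it in 4 of 109 control cells, 3.67% (1.01% to 9.13%), at 2.02 CPM. The control shares of tenocyte-like cells, 3.09%, and of articular chondrocyte-like cells, 4.23%, were within that interval. By share they are therefore not told apart from these deeper cells, whereas their intervals lay above the erythroid-like one (0.397% to 1.27%). At 1500 UMIs per cell the control shares were 2.02% in tenocyte-like, 0.599% in articular chondrocyte-like, 0.917% in progenitor-like and 0.185% in erythroid-like cells. The tenocyte-like and articular levels of 10.1 CPM (4.99 to 17.9) and 16.6 CPM (7.92 to 30.4) lay above the erythroid-like 2.25 CPM (1.41 to 3.34). A single cell had Penk among 106 control and 95 mutant osteoblast lineage-like cells each. Among synovial lining-like cells 1 of 210 control and 0 of 58 mutant cells had a Penk UMI, and among mural cell-like cells 0 of 65 and 0 of 44. By the rule of 3 counts over the number of cells, which bears on cells with a captured UMI and not on cells that express the gene, 0 of 58 allows a share of up to 5.17%, 0 of 65 of up to 4.62% and 0 of 44 of up to 6.82%. Marrow stromal cell-like cells had 3 of 138 and 2 of 98 cells with Penk. Cells that passed no gate were shallow, with median depths of 1300 and 1173 UMIs, and stood at 8.57 CPM (6 of 499 cells) and 195 CPM (25 of 360 cells, 6.94%, and 6.98% at 1500 UMIs per cell). The mutant level in these cells was thus above that of mutant fibroblast-like cells. Prehypertrophic and hypertrophic chondrocyte-like cells were too few to read, 6 and 2 cells, all at 0. At an equal depth of 1500 UMIs per cell the shares of mutant cells with Penk kept the order of the shares at full depth, which is not that of the CPM, with 23.2% in growth cartilage, 22.2% in tenocyte, 15.5% in fibroblast and 11.8% in articular chondrocyte-like cells, and 0% in osteoblast lineage-like ones.

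**Figure D1:**
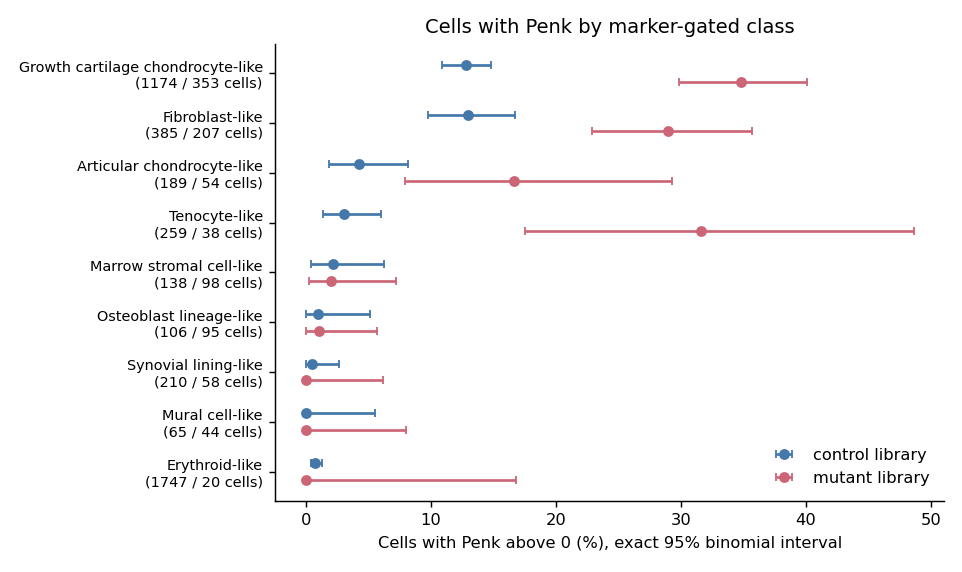
Share of cells with Penk above 0 (x axis, percent) in each marker-gated class (y axis, with the number of control and mutant cells), for the control (blue) and mutant (red) library. Points are shares of 1 library and bars are exact 95% binomial intervals; the mutant shares of 4 classes lie above all others, from 16.7% to 34.8%, and above the control shares of the same classes, of which the articular (4.23%) and tenocyte (3.09%) ones lie among those of other classes.

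In the marked chondrocytes, Penk stood at 54.2 CPM in the control library, from 166 UMIs, and at 418 CPM in the mutant library, from 1280 UMIs at nearly the same summed depth given above. The log2 ratio of mutant over control, with 1 CPM added to both, was 2.92 (counting interval 2.72 to 3.19), a 7.71-fold difference, and this is the kind of value the gene was chosen on. Among 8117 genes that reached 10 CPM in either library it ranked 16th, and 4.57% of them were higher in mutant cells by at least 1 on the log2 scale. The median log2 ratio of the 6911 genes that reached 10 CPM in both libraries was -0.16, so that Penk stood 3.08 above it. Penk in the unmarked control chondrocytes with globin stood at 72.1 CPM, with 70 of 512 cells positive, so that the control level over all Sox9+Col2a1+ cells was 61.9 CPM and the ratio 2.74.

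The difference had a part in how many cells held Penk and a part in how much each held. Of 501 control cells 79 had Penk, 15.8% (12.7% to 19.3%), and of 332 mutant cells 109, 32.8% (27.8% to 38.2%), which differ by 17.1 percentage points (11.1 to 23.1). At 1500 UMIs per cell, with 21 shallower control and 23 shallower mutant cells left out, Penk was found in 5.63% and 20.1%. Within the cells that had Penk, the summed level was 341 CPM for control and 1160 CPM for mutant cells. At full depth the fold was thus 2.08 in the share of cells and 3.41 in the level of positive cells. This split depends on depth, because the shares at 1500 UMIs lay further apart in relative terms, and it does not show which part was larger. Control cells with Penk held a median of 0.967 Penk UMIs and mutant ones 2.99.

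The distribution over cells was uneven in both libraries, and the mutant one reached much further. With values rounded to whole UMIs, 47 control cells had 1 Penk UMI, 26 had 2 to 4, 4 had 5 to 9, and 2 had more, with 14 UMIs in the highest. Of the mutant cells 28 had 1 UMI, 32 had 2 to 4, 18 had 5 to 9, 26 had 10 to 49 and 5 had 50 or more, with 136, 127 and 95 UMIs in the highest 3. Cells with a single UMI were thus about as frequent in both libraries, 9.38% of control (6.97% to 12.3%) and 8.43% of mutant cells (5.68% to 12%). Cells with 10 or more were 2 of 501 control and 31 of 332 mutant cells. In the mutant library those with 10 to 49 held 44.4% of the Penk UMIs and those with 50 or more 38.2%, whereas 26.3% of the control UMIs lay in cells with 1. The 10 highest cells of each library were all growth cartilage chondrocyte-like, as were 458 of all 501 control and 260 of all 332 mutant marked cells. The markers of that class include Sox9 and Col2a1, which every marked cell had, so this was largely set by the selection. Of the highest cells 1, a mutant one, was over 5% mitochondrial reads.

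**Figure D2:**
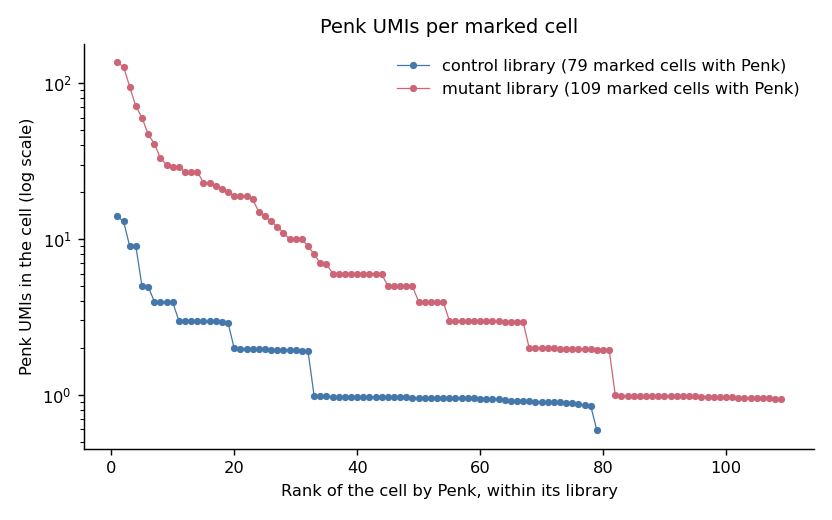
Penk UMIs in each marked cell with Penk (y axis, log scale) against the rank of the cell within its library (x axis), for 79 control (blue) and 109 mutant (red) cells. The steps are whole UMIs after ambient correction; the mutant curve starts at 136 UMIs and the control curve at 14.

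The share of all Penk held by the top cells was alike in relative terms. The 3 highest cells held 21.6% of the control and 28% of the mutant UMIs, the highest 10 held 42.4% and 52.3%, and 50% of the UMIs lay in the highest 15 control cells (2.99% of marked cells) and the highest 10 mutant cells (3.01%). Without the 3 highest cells of each library the levels were 42.7 and 306 CPM and the log2 ratio 2.81. Without the highest 10 they were 31.8 and 208 CPM (2.67), and without the highest 30, which removed 71.4% of the control and 81.8% of the mutant UMIs, 16.4 and 84.9 CPM (2.30). The mutant level was above the control level at each of these steps, and the ratio was smaller the more cells were taken out.

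**Figure D3:**
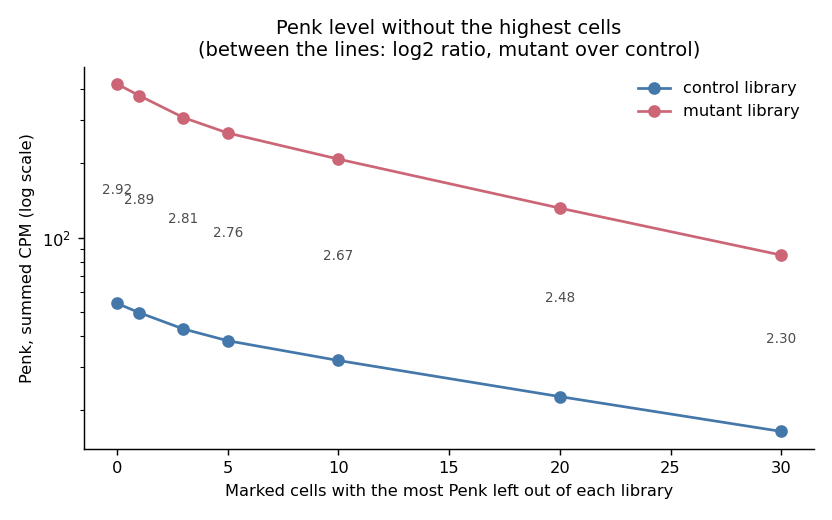
Summed Penk level in marked cells (y axis, CPM, log scale) after the cells with the most Penk are left out of each library (x axis, number of cells), with the log2 ratio of mutant (red) over control (blue) printed between the lines. The ratio declines from 2.92 with all cells to 2.30 without 30 cells per library.

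By class the ratio was higher in the mutant library wherever more than 3 UMIs were present in both. It was 3.04 (2.89 to 3.24) in growth cartilage chondrocyte-like cells, where 3.3% of 8182 genes were higher by at least 1. In articular chondrocyte-like cells it was 4.69 (3.86 to 5.87), against a background of 8.86% of 8706 genes. In tenocyte-like cells it was 4.81 (4.02 to 6.03), with a background of 11.5% of 8849 genes. In fibroblast-like cells it was 1.38 (0.99 to 1.82), with a background of 5.17% of 9089 genes, and 213 of these genes had a higher ratio than Penk. The differences between classes were not tested, since each rests on 1 library per genotype.

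These ratios rested on very different numbers of cells. The articular chondrocyte-like value came from 10.0 control and 139 mutant UMIs, of which 90.8% lay in 3 mutant cells, and without the 3 highest cells of each library it was 2.54, from 4.17 and 12.8 UMIs. The tenocyte-like value came from 11.1 and 62.6 UMIs, and it was 4.41 without the 3 highest cells and 3.43 in the 201 control and 22 mutant cells that passed a gate of 4 markers. The fibroblast-like value was 1.10 without the highest cell of each library, the mutant one with 40.0 of 177 UMIs, and 0.75 in cells that passed the gate of 4 markers. The growth cartilage chondrocyte-like value was 2.85 without the 3 highest cells. In bulk sums such as these, more cells with the transcript and more transcript per cell add up alike, which is why both were given for the marked cells.

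Within the marked chondrocytes, Penk was low in cells with genes of hypertrophy and bone formation, in both libraries. Cells with Panx3, a pannexin channel of prehypertrophic chondrocytes, had 12 CPM of Penk against 72.2 CPM without it in the control library, and 22.8 against 542 CPM in the mutant library. Cells with Pth1r, the receptor for parathyroid hormone-related protein, had 24.6 against 85.2 CPM and 318 against 515 CPM. Cells with Bglap2, an osteocalcin gene, had 3.01 against 59.8 CPM and 16.7 against 480 CPM, and cells with Sp7, the osteoblast transcription factor osterix, 8.93 against 59.4 CPM and 33.3 against 499 CPM. Cells with Col10a1, the collagen of hypertrophic cartilage, were few: 0 Penk UMIs in 13 control cells, and 135 CPM in 9 mutant cells against 429 CPM without. The cells with Panx3 were the deeper ones, with medians of 8538 (control) and 13354 UMIs (mutant) against 5371 and 8207 for the others, and at 1500 UMIs per cell Penk was found in 0.952% and 3.57% of Panx3-positive cells against 6.91% and 23.7% of the others.

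Ibsp, bone sialoprotein, was the exception among the osteoblast markers. Marked cells with Ibsp had 80.7 CPM of Penk against 50.2 CPM without it among control cells, and 853 against 283 CPM among mutant cells. The mutant gap in CPM rested on few cells. Those ranked 1, 2 and 4 by Penk had Ibsp and held 136, 127 and 71.0 of the 616 Penk UMIs in 75 cells with it. Those ranked 3 and 5 had no Ibsp. By share the mutant gap was smaller, 37.3% with Ibsp against 31.5% without, and 25.3% against 18.4% at equal depth. The control shares at equal depth were 9.52% and 5.04%. Of the 4 osteoblast markers with at least 20 cells on each side, Penk was lower with 3 and higher with Ibsp in both libraries, and of the 2 hypertrophic ones lower with both.

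By CPM, markers of articular and superficial cartilage tended the other way, with exceptions. Of 7 such markers Penk was higher in cells with the marker in both libraries for 5, lower for 1 and opposite for 1. Clu, clusterin, went with 73.3 against 42.7 CPM in the control and 638 against 178 CPM in the mutant library. Prg4, lubricin, went with 72.3 against 50.1 CPM and 566 against 320 CPM. Abi3bp, a matrix-binding protein, went with 93.4 against 38.0 CPM and 602 against 304 CPM. Chil1, a chitinase-like protein of cartilage, had the widest gap in the mutant library, 1782 CPM in 41 cells with it against 208 CPM in 291 cells without it, and 82.0 against 50.7 CPM in the control library. Creb5, a transcription factor of articular chondrocytes, went the other way in the mutant library, at 117 against 582 CPM, and showed little in the control library, at 52.6 against 54.9 CPM. Cytl1 was opposite between the libraries, at 43.2 against 55.0 CPM in the control and 721 against 334 CPM in the mutant one. At equal depth the share of cells with Penk was higher with the marker in both libraries for 2 of the 7, Clu and Chil1. It was lower for 1, Erg, whose CPM went the other way. The direction turned for Prg4 in the control library (3.81% with and 6.13% without) and for Abi3bp in the mutant one (19.5% and 20.4%).

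Markers of growth cartilage gave no single direction. Of 7 with enough cells on each side, Penk was higher with the marker in both libraries for 4, lower for 1 and opposite for 2. The matrilin Matn1 went with less Penk in both libraries, 18.5 against 69.3 CPM in control and 275 against 473 CPM in mutant cells. Cnmd, chondromodulin, went with more, 56.7 against 11 CPM and 476 against 93.9 CPM, and Hapln1, Col9a1 and Acan did as well by CPM. Cells without Cnmd were far shallower, with medians of 2476 (control) and 4298 UMIs (mutant), and held 1.84 and 43.8 Penk UMIs, and control cells without Hapln1, Col9a1 and Acan held 4.42, 4.72 and 0. At equal depth the share of cells with Penk was higher with the marker in both libraries for 3 of the 7, Cnmd, Matn3 and Acan, and lower for 1. In the mutant library Matn3 (20.2% with and 19.9% without) and Acan (20.1% and 20%) made little difference. The direction turned in the control library for Hapln1 (5.54% with and 6.90% without) and for Col9a1 (also 5.54% and 6.90%). That turn rests on few cells, as only 44 and 46 control cells of any depth lacked these markers. Ucma, a matrix protein of the upper growth plate and resting cartilage, was opposite between the libraries. Cells with Ucma had 49.4 CPM and cells without it 86.1 CPM in the control library, whereas in the mutant library 237 cells with it had 488 CPM and 95 cells without it 76.5 CPM. Over 20 markers, 36 parts of the marked cells, with or without a marker, held enough Penk in both libraries for a ratio. The mutant level was the higher one in 35 of them, up to a log2 ratio of 4.43 in cells with Chil1, and the lower one in cells without Ucma (-0.17). These parts overlap and come from the cells in which Penk was chosen for its ratio. The count is therefore a description and no separate support.

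**Figure D4:**
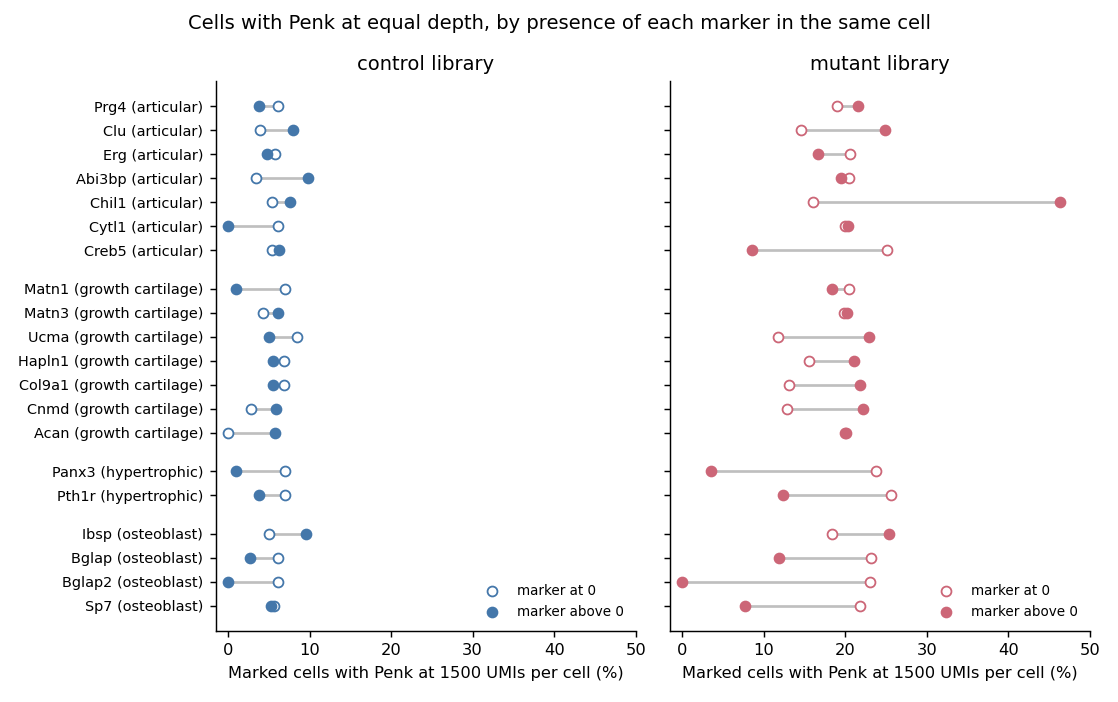
Share of marked cells with Penk after every cell was thinned to 1500 UMIs (x axis, percent) among cells with (filled) and without (open) each marker of 4 classes (y axis), in the control (left) and mutant (right) library. Cells with Panx3, Pth1r, Bglap, Bglap2 and Sp7 lie to the left of cells without them in both panels, Sp7 in the control panel by little (5.26% against 5.66%), while Clu, Chil1 and Ibsp lie to the right.

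The 31 mutant cells with 10 or more Penk UMIs were set against the 223 mutant marked cells without Penk, at median depths of 9950 and 8389 UMIs. In sum, they had less of 4 of 4 hypertrophic and 5 of 6 osteoblast markers, with no single direction for the articular ones (4 of 7 higher). Of the growth cartilage markers 7 of 8 were lower in sum, yet all 8 were detected in a larger share of the 31 cells. Acan, for example, was found in 90.3% against 71.3%, at 1477 against 1591 CPM. The 31 cells had no UMI of Panx3, Bglap2, Sp7 or Ihh, where the others stood at 84.0, 821, 26.4 and 14.8 CPM. Col2a1 was 30313 against 28818 CPM and Sox9 870 against 953 CPM, although 6 of the 10 highest cells had only 16.1 to 50.5 Col2a1 UMIs. Clu stood at 1807 against 982 CPM, Chil1 at 256 against 42.3 CPM, Ucma at 1672 against 993 CPM and Ibsp at 1925 against 967 CPM. Abi3bp stood at 141 against 231 CPM, Creb5 at 27.1 against 106 CPM, Hapln1 at 1311 against 2440 CPM, Matn1 at 23 against 120 CPM and Matn3 at 457 against 581 CPM. Fos, an immediate early gene of the AP-1 family, stood at 5137 against 2824 CPM. Prg4 was lower in the sum, at 1804 against 3302 CPM, yet present in 54.8% of these cells against 38.1%. In the control library, the 32 cells with 2 or more Penk UMIs had 16 CPM of Panx3 against 169 CPM in the rest, 1133 against 271 CPM of Ibsp and 6328 against 2213 CPM of Prg4.

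Correlations of Penk with single genes over cells were weak. Over 5635 genes above 0 in at least 10% of the marked cells of both libraries, Pearson r on the log2 values reached at most 0.18 in the 501 control cells and 0.36 in the 332 mutant cells, and r with the logarithm of the cell total was 0.03 and 0.11. An r of at least 0.1 was found for 136 genes over control and 814 over mutant cells, and 50 genes had it in both, 36.8% of the control and 6.14% of the mutant ones. No gene reached 0.2 in both. All these values share the depth and the composition of 1 library each, and they are descriptions.

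The genes most like Penk were ranked by the lower of the 2 values. Igf2, an insulin-like growth factor of growing tissues, came first with r of 0.18 over control and 0.26 over mutant cells. It stood at 510 CPM in control cells with Penk against 330 CPM in those without, and at 271 against 210 CPM in the mutant library. Omd, osteomodulin, a small leucine-rich proteoglycan, followed with 0.16 and 0.35, at 140 against 55.9 CPM and 460 against 170 CPM. The matrix protein gene Ecm2 (0.15 and 0.24), the metalloproteinase inhibitor Reck (0.15 and 0.15), the tetraspanin Tspan6 (0.14 and 0.22), the secreted peptide gene Ecrg4 (0.14 and 0.20), Crispld1 (0.14 and 0.21), the imprinted noncoding RNA Meg3 (0.13 and 0.26), Amotl2 (0.13 and 0.16) and Itm2a (0.13 and 0.18) completed the first 10. Only 3 of these 10 were among the first 10 after thinning to 1500 UMIs per cell, where 1699 genes could be ranked, and 7 were without the 3 highest Penk cells of each library. Crispld1 was an exception in the sums, at 735 CPM in mutant cells with Penk against 849 CPM in those without. Of these, Omd and Tspan6 were themselves higher in the mutant library by at least 1 on the log2 scale (1.97 and 1.61), and Igf2 was lower (-0.63).

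The genes most unlike Penk included those already met among the hypertrophic markers. They were Gps1, a signalosome subunit (r of -0.14 and -0.14), the matrix gene Tgfbi (-0.13 and -0.12), Panx3 (-0.11 and -0.21), Pth1r (-0.14 and -0.11) and the mitochondrial transcript mt-Atp6 (-0.10 and -0.26). Cells with Penk also had fewer mitochondrial reads, with a median of 2.82% in the mutant library against 3.67% in cells without it, and 2.29% against 2.44% in the control library. The part of cell quality in the results was not tested beyond a repeat within the methods' limits of 5% and 24000 counts, where the ratio in marked cells was 3.03.

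Penk was the only opioid precursor at a readable level. Of the other 3, Pdyn (prodynorphin) was listed at 0 in every cell of both libraries, and Pnoc (pronociceptin) in all marked cells, with 6 UMIs in 1 control cell elsewhere. Pomc (pro-opiomelanocortin) had 11 UMIs in 11 control and 18.8 UMIs in 15 mutant marked cells, 3.58 and 6.15 CPM.

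The processing genes were present without the Penk pattern. Cpe, the carboxypeptidase that trims enkephalins, was the highest, at 430 CPM in 71.7% of control and 514 CPM in 73.5% of mutant marked cells, a log2 ratio of 0.26. Of the 11 genes of this list 7 had at least 10 CPM, of which 2 were higher and 5 lower in the mutant library, with a median log2 ratio of -0.34 beside -0.18 for all 8117 genes. Ctsl, cathepsin L, which also cuts proenkephalin, was the 1 gene past 1, at 91.7 and 190 CPM (1.04). The convertases of the constitutive pathway stood lower, with Furin at 93.4 and 84.9 CPM, Pcsk6 at 57.6 and 41.8, Pcsk5 at 26.1 and 16.6, Pcsk7 at 21.8 and 16.5 CPM, and carboxypeptidase D (Cpd) at 81.5 and 64.1 CPM. The neuroendocrine convertases that serve enkephalin release in neurons were at the limit of detection, Pcsk1 with 0 and 1 UMI and Pcsk2 with 3.71 and 0.999 UMIs.

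Of the 7 processing genes above the minimum, Furin alone was higher in cells with Penk in both libraries, and the other 6 went opposite ways. Cpe stood at 464 CPM in control cells with Penk against 424 CPM in those without, and at 504 against 519 CPM in the mutant library, and it was present together with Penk in 56 of 79 control and 91 of 109 mutant cells, or 70.9% and 83.5% against 71.8% and 68.6% of cells without Penk. Furin stood at 104 against 91.5 CPM and 93.1 against 80.3 CPM. Pcsk6 stood at 80.4 against 53.3 CPM in control and 32.3 against 47.1 CPM in mutant cells, Ctsl at 94.1 against 91.2 CPM and 154 against 210 CPM, and Cpd at 79.1 against 82.0 CPM and 75.9 against 57.4 CPM. By class, Cpe was high in synovial lining-like (1020 and 606 CPM) and osteoblast lineage-like cells (614 and 712 CPM), where Penk was found in at most 1 cell per library, and low in tenocyte-like cells (25.3 and 4.67 CPM).

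The receptors that enkephalins are best known for were not detectable at this depth. In marked cells Oprm1, Oprk1 and Oprl1 were listed at 0 and Oprd1 had 1 UMI in 1 mutant cell. Over all cells Oprd1 had 7 control UMIs and 1 mutant UMI, and Oprm1 3 and 0. Ogfr, the opioid growth factor receptor, was present in 18.8% of control and 27.4% of mutant marked cells, at 36.2 and 40.3 CPM (log2 ratio 0.15), with 21.2 CPM in control cells with Penk against 39.0 CPM in those without and 37.0 against 42.1 CPM in the mutant library. Ackr3, an atypical chemokine receptor that also binds opioid peptides, stood at 33.5 and 40.0 CPM (0.25) and was higher in synovial lining-like (121 and 230 CPM) and fibroblast-like cells (83.7 and 163 CPM).

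Peptidases that degrade enkephalins were present at levels from a few CPM to that of Lnpep, which was above Penk in control cells. Of 6 genes, 5 had at least 10 CPM in either library, of which 1 was higher and 4 lower in the mutant library, none by 1 on the log2 scale, with a median of -0.26. The higher one, Dpp3, reached 10 CPM in the mutant library alone. Lnpep (112 and 68.6 CPM, -0.69) and Npepps (51.8 and 36.0 CPM, -0.51) were the highest. Neprilysin (Mme) stood at 13.5 and 12.6 CPM, angiotensin-converting enzyme (Ace) at 15.3 and 12.6 CPM, dipeptidyl peptidase 3 (Dpp3) at 9.55 and 10.4 CPM and aminopeptidase N (Anpep) at 4.07 and 3.87 CPM. Between marked cells with and without Penk, Ace was the higher one with Penk in both libraries, in 13.9% against 6.64% of control cells (35.8 against 11.5 CPM) and 11.9% against 5.83% of mutant cells (14.4 against 11.7 CPM), Mme and Dpp3 were lower in both, and the other 3 went opposite ways. Ace and Anpep were higher in fibroblast-like cells, at 148 and 93.4 CPM and at 96.5 and 83.7 CPM.

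**Figure D5:**
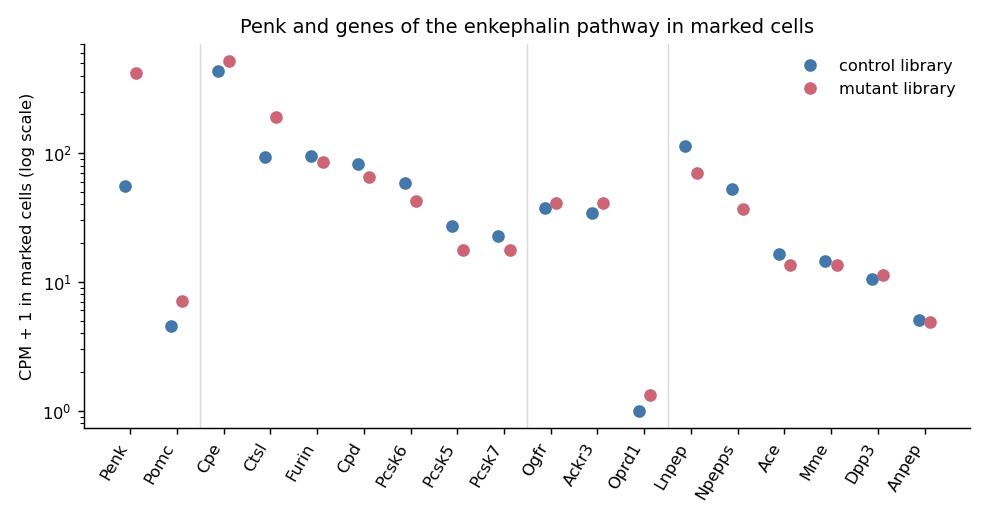
Levels of Penk and of genes of enkephalin processing, reception and degradation in marked cells (y axis, CPM + 1, log scale) for the control (blue) and mutant (red) library, with grey lines that separate precursors, processing genes, receptors and peptidases. Penk moves from 54.2 to 418 CPM, while the other genes differ by little between libraries, Ctsl by the most at 91.7 and 190 CPM.

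The AP-1 and CREB list, named for families known to act on the Penk promoter, gave no common direction. It also holds Egr1, Nr4a1 and Crebbp, which belong to neither family. Of 14 genes, 13 had at least 10 CPM, 6 higher and 7 lower in the mutant library, none by 1, with a median log2 ratio of -0.12. The highest, Fos, stood at 2896 and 3000 CPM (0.05), Fosb at 2805 and 1805 CPM (-0.64) and Jun at 2252 and 1188 CPM (-0.92). The summed level of all 14 was 13164 and 11138 CPM, and the cells were digested for hours, which is known to raise these genes. In the cells at or below the median of this sum Penk stood at 62.9 and 323 CPM (2.34), and in those above it at 47.8 and 561 CPM (3.53). Of 14 dissociation stress genes 7 were higher and 7 lower, with a median of 0.01; Hspa8 (1163 and 1179 CPM), Hsp90aa1 (1001 and 991 CPM) and Klf6 (682 and 541 CPM) were the highest, and Ier3 was the 1 gene past 1 (187 and 453 CPM). In the cells at or below the median of their sum Penk stood at 54.0 and 519 CPM (3.24), and in those above it at 54.4 and 338 CPM (2.61). Penk was chosen on its ratio in these same cells, so these splits are descriptions. The part of either list in the Penk values was not tested.

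Il11, a gp130 cytokine that was also higher in mutant marked cells at 43.1 and 290 CPM (2.72), was related to Penk over the cells in one way by share and in another by level. Mutant cells with Il11 had 326 CPM of Penk and those without it 517 CPM, and the control values were 53.9 and 54.2 CPM, while the share of cells with Penk, at 1500 UMIs per cell, was 22% against 18.7% for mutant and 7.58% against 5.31% for control cells. At full depth these shares were 41.7% against 27.3% and 17.9% against 15.4%, and cells with Il11 were the deeper ones (12614 against 6613 UMIs for mutant and 6918 against 5731 for control cells). Of the 6 gp130 cytokine genes 3, Il11, Clcf1 (6.39 and 18.2 CPM) and Lif (7.03 and 10.1 CPM), had at least 10 CPM in either library. Their median log2 ratio was 1.38. Clcf1 and Lif reached 10 CPM in the mutant library alone, so that the filter fixed their direction in advance. Il6, left out by it, stood at 3.79 and 3.58 CPM, and the median over all 6 genes was 0.63. Marked cells with a Stat3 UMI had 68.3 CPM of Penk against 35.9 CPM without in the control library, and 430 against 402 CPM in the mutant library.

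The study states that its maturation lists hold genes from an earlier single-cell study of growth plate zones and known regulators of each zone. It compared them between these same 2 libraries, so the values below are not independent of its result. The lists are given here for all marked cells, with or without Penk, and do not describe the cells that held Penk. Of 13 hypertrophic genes with at least 10 CPM in either library 11 were higher in the mutant library, 5 of them by at least 1, beside 4.57% of all 8117 genes. Their median log2 ratio was 0.62 beside -0.18. Snai1 (6.41 and 17.8 CPM), 1 of the 5, reached 10 CPM in the mutant library alone. Col1a1 (2657 and 4357 CPM), Col10a1 (92.1 and 475 CPM, from 13 and 9 cells) and Alpl (87.3 and 135 CPM) were among the 11. Of 10 proliferative genes 3 were higher and 7 lower, with a median of -0.19; Fn1 stood at 2598 and 2023 CPM, and lubricin at 2463 and 2560 CPM. Across marked cells r of Penk with Col10a1 was -0.07 and -0.06, with Sp7 -0.08 and -0.15, and with Sox5 0.00 and 0.02.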

How the data were processed

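Live, lineage-negative knee joint cells were measured by droplet 3′ single-cell RNA sequencing, 1 library per genotype. The authors processed reads in Partek Flow, aligned them to mm10 with STAR 2.7.3a, removed duplicate UMIs, counted on a Gencode annotation and corrected ambient RNA with SoupX (R 4.0.3 per the labels). Each deposited gene value is a log2(CPM + 1); the deposited cell totals are estimated counts (not whole after SoupX), beside a percent of mitochondrial reads and a score of expressed genes. The methods state a removal of cells over 5% mitochondrial reads and slightly more cells per library than the tables hold, yet 4209 of 4903 control and 848 of 1340 mutant cells lay within that limit; all were kept. UMIs were recovered as CPM times the cell total; 88.9% of the 476 Penk values above 0 lay within 0.1 of a whole number, so SoupX left fractions in the rest. UMIs were summed over cells per library and divided by the summed totals; 1 CPM was added before log2 ratios. Shares have exact Clopper-Pearson and ratios exact binomial intervals, differences of shares Newcombe intervals, CPM exact Poisson intervals. Thinning drew 1500 UMIs per cell (seed 1). Penk, the markers and the lists were chosen with earlier results of these data known; genes were named by a fixed rule: pathway genes above 0 in at least 1% of marked cells, the 10 highest and 5 lowest correlations, the highest members of other lists, and the top markers of a class. Other named markers and genes near 0 were added after their values were seen. Scrublet (expected rate 0.05) called 74 control and 2 mutant doublets, kept except in an alternative. Sequences and coordinates came from a Gencode annotation of GRCm38 of another release than the authors'. Scripts ran in Python 3.11.15 with numpy 2.4.6, scipy 1.17.1 and scanpy 1.11.5 and were tested on simulated data. Alternatives were gates, cell limits, scaling, pseudocounts, thinning and leaving out top cells.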

Additional observations from a re-analysis of the deposited data

How the results depend on the processing

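The log2 ratio of Penk in marked cells was above 0 under all 19 alternatives run, from 2.30 to 3.53. It left the counting interval as the mean of per-cell CPM (2.67), and, in alternatives chosen after seeing the data, without the 10 or 30 highest cells of each library (2.67 and 2.30) and in cells at or below and above the median of the AP-1 and CREB sum (2.34 and 3.53) and of the dissociation stress sum (3.24 and 2.61). With a gate of 4 markers the class ratio was 0.75 in fibroblast-like and 3.43 in tenocyte-like cells. By class CPM in place of counts, growth cartilage chondrocyte-like cells held 40.9% (control) and 35.4% (mutant) of the sum over 9 classes. The mutant share of the 3 top cells was 17.6% by per-cell CPM. Thinning left 6 genes with r of at least 0.1 in both libraries in place of 50, among 1699 genes that passed the filter. The median of the opioid precursors was 0.32 over all 4 members, and that of the gp130 cytokines 0.78 with 10 CPM added and 0.63 over all members; the other list medians moved by no more than 0.25. No paired analysis was possible because each genotype has 1 library. With 1 library per genotype, what separates these pools of mice and what the genotype does cannot be told apart.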
